A study of Homo sapiens with 8 samples.

Results

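The MAX network is the set of 10 genes MYCN, MYC, MYCL, MAX, MXD1, MXD3, MXD4, MXI1, MNT and MGA, chosen by name. Each symbol mapped to 1 Ensembl identifier, so 10 of the 58787 genes in the deposited count table were members. The RNA came from IMR32, an established human neuroblastoma cell line that the labels describe as wild type in genotype and as neuroblasts, with brain given as the tissue. IMR32 is known for amplification of MYCN, so it is a model of tumours that carry many copies of that gene. Cells were left to adhere for 48 h and were then treated for 6 h. The CR31B group received the compound at its IC50 (4 libraries), and the DMSO group received the vehicle at 0.1% (4 libraries). The concentration behind the IC50 was not given in the sources used here. CR31B is a rocaglate, a compound class that clamps the RNA helicase eIF4A onto messenger RNA and so blocks the start of translation. The title of the series places the work in MYCN-driven neuroblastoma and its translation by eIF4A, and the comparison below shows the RNA side of that question. The series' design text calls the 4 libraries of each group biological replicates.

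MYC proteins are transcription factors that bind DNA only as dimers with MAX. MAX also pairs with the MXD proteins (MXD1, MXD3, MXD4 and MXI1), with MNT and with MGA, and these dimers compete for the same DNA sites. MYC-MAX dimers recruit histone acetylation and raise transcription, whereas MXD-MAX and MNT-MAX dimers recruit the SIN3-HDAC corepressor and lower it. MYC mRNAs and proteins are short-lived, and their output is therefore known to be sensitive to changes in transcription and translation. Protein amounts were not part of the deposited data. In bulk RNA, fewer cells of a type and less RNA per cell cannot be told apart.

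The site that the network reads is the E-box, CACGTG, a palindrome that reads the same on both strands. RefSeq start-site windows (GRCh38.p14, 250 bases before to 50 after a start) were searched for 9 members, in 14 windows of 300 bases. MYC was left out of this search. An E-box stood in 2 of the 14, those of MXD4 and MNT, against 7.26% of all 35116 windows. The E2F motifs TTTGGCGC and TTTCCCGC, searched on both strands and not overlapping the E-box, stood in 2 of the 14, those of MYCN and 1 window of MGA, against 2.27% of all windows. Stretches before the start, with annotated exons of protein-coding genes left out, are printed for both E-box carriers, for MYCN as the amplified gene, and for MXD3 as the MXD gene that was lower. Capitals mark a motif match, and each runs 5′ to 3′ on the strand of its gene.
MYCN, chr2:15940300-15940549, plus strand: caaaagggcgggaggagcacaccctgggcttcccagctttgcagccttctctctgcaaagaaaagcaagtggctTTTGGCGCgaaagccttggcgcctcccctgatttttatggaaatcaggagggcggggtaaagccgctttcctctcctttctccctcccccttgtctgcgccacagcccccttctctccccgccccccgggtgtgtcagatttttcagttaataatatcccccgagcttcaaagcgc
MXD4, chr4:2262295-2262359, minus strand: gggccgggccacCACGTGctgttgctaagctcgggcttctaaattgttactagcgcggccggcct
MNT, chr17:2401119-2401310, minus strand: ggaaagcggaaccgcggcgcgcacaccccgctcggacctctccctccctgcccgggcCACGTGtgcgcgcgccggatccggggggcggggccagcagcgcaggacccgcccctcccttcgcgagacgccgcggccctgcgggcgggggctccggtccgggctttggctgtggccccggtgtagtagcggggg
MXD3, chr5:177312758-177313002, minus strand: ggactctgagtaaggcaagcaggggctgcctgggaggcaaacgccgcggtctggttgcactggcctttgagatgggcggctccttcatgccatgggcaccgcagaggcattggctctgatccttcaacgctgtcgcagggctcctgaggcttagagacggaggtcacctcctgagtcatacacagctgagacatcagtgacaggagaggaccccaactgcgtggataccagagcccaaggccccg
The first base of the match stood at -176 from the start for MYCN, at -238 for MXD4 and at -193 for MNT. These matches describe letters in a window, and no binding was measured.

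Total counts lay between 43687828 and 64715535 per library. The layout was paired-end in both libraries of replicate 1 and single-end in the remaining 6, per the labels. In replicate 1 the difference between the labels ran against the other pairs across the table, with the opposite sign in 6822 of the 6901 genes called in replicates 2 to 4. Same-numbered libraries are therefore shown as pairs, with pair 1 apart. Layout, replicate 1 and this opposite course sit in the same 2 libraries and cannot be told apart. The labels do not settle whether the names of these 2 libraries were exchanged. The direction of every value for pair 1, for the interaction and for all 8 libraries therefore holds only for the libraries as labelled. Higher, lower, rose and fell in pairs 2 to 4 likewise follow the labels of those 6 libraries. Opposite signs alone do not tell which set of libraries carries the right labels. Of 8 markers of adrenergic neuroblastoma, 0 lay under 1 CPM (counts scaled to the library total) on average. All 4 leukocyte and all 4 epithelial markers lay under 1 CPM on average, as did 2 of 3 endothelial markers and 2 of 7 mesenchymal markers. PRRX1, CD3E and KRT18 were at 0 in every library. The adrenergic markers moved between the groups. Their summed level was 3657 to 3942 CPM in the libraries labelled CR31B of pairs 2 to 4 and 2554 to 2587 CPM in those labelled DMSO, with 5 of 8 called higher and 2 lower. The mesenchymal sum was 643 to 733 CPM against 523 to 611 CPM. Their part in the results below was not tested.

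The levels of the members spanned a wide range. Values are CPM scaled with TMM factors and, to compare genes, divided by the length of the gene's exons in kb. MYCN held 885 to 1139.8 CPM per kb in the 8 libraries, between place 4 and place 7 of 16497 genes ranked on that scale. It made up 99.836% to 99.894% of the summed length-scaled level of the 3 MYC genes in every library. MAX, the shared partner, followed with 14.4 to 20.5 CPM per kb, and MXI1 with 8.97 to 11.7. MNT (5.48 to 6.64), MXD4 (4.53 to 6.76) and MGA (4.39 to 6.69) came next, and their ranges overlapped. MXD3 (2.27 to 4.17) and MXD1 (1.84 to 2.99) also overlapped each other. MYCL (0.666 to 1.30) and MYC (0.159 to 0.592) were the lowest. The other neighbours in this order did not overlap. With the median transcript length in place of the exon union, MYCN still came first and MYCL and MYC last in the DMSO libraries of pairs 2 to 4. There MNT moved up to stand behind MAX, with 83.6 against 90.1 CPM per kb, and MXD4 (54.4) stood above MXI1 (48.4).

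**Figure D1:**
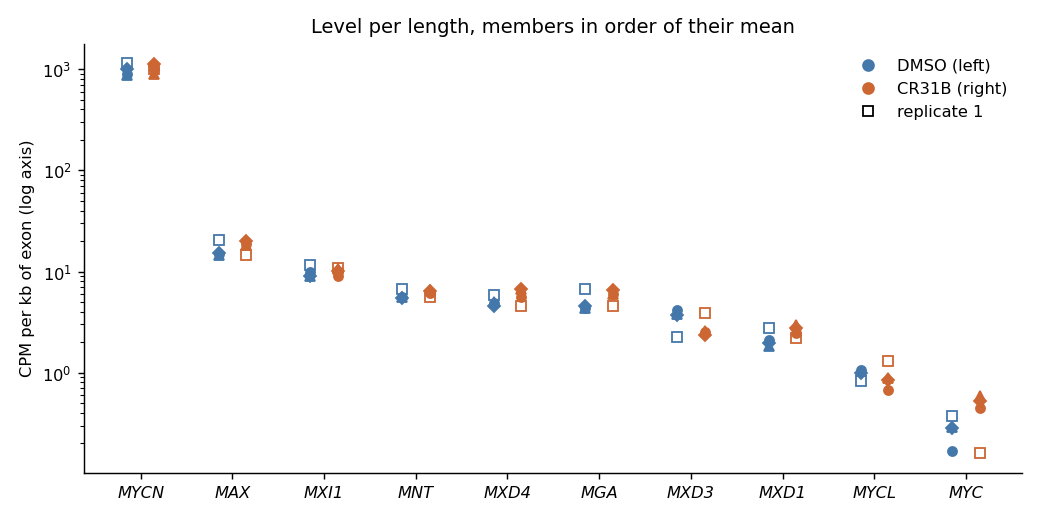
Level of each member in CPM per kb of exon on a log axis, with 1 point per library, DMSO at the left and CR31B at the right of each gene and replicate 1 as open squares. MYCN lay between 885 and 1139.8 and every other member at or under 20.5.

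In pairs 2 to 4, 8 of the 10 members passed an adjusted p of 0.05 between CR31B and DMSO (edgeR quasi-likelihood test, Benjamini-Hochberg over 16696 genes). MYC, MAX, MXD1, MXD4, MNT and MGA were higher with CR31B, and MYCL and MXD3 were lower. MYCN and MXI1 did not pass. Over all genes tested 41.3% were called, 23.8% higher and 17.6% lower, so a gene taken from this table at large was also often called. The members' median log2 fold change was 0.276 and the median of its size 0.385, against -0.007 and 0.242 over all genes. Of all calls 57.5% were higher with TMM scaling and 40.0% with upper quartile scaling. With upper quartile or total count scaling 7 members passed, 5 higher and 2 lower.

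With all 8 libraries as labelled, 0 of 10 members passed, as did 0% of the 16518 genes tested (edgeR; 205 genes had an unadjusted p under 0.05, and DESeq2 also called 0). Adjusted p ranged from 0.707 to 0.881 for the members (edgeR). In pair 1 all 8 members called in pairs 2 to 4 had the opposite sign. The difference of pair 1 from pairs 2 to 4 passed for those 8 members, against 42.5% of all genes (interaction of treatment with layout, edgeR). Pair 1 holds 1 library per group, so that interaction takes its spread from pairs 2 to 4, and the intervals given for pair 1 below cover counting error only.

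**Figure D2:**
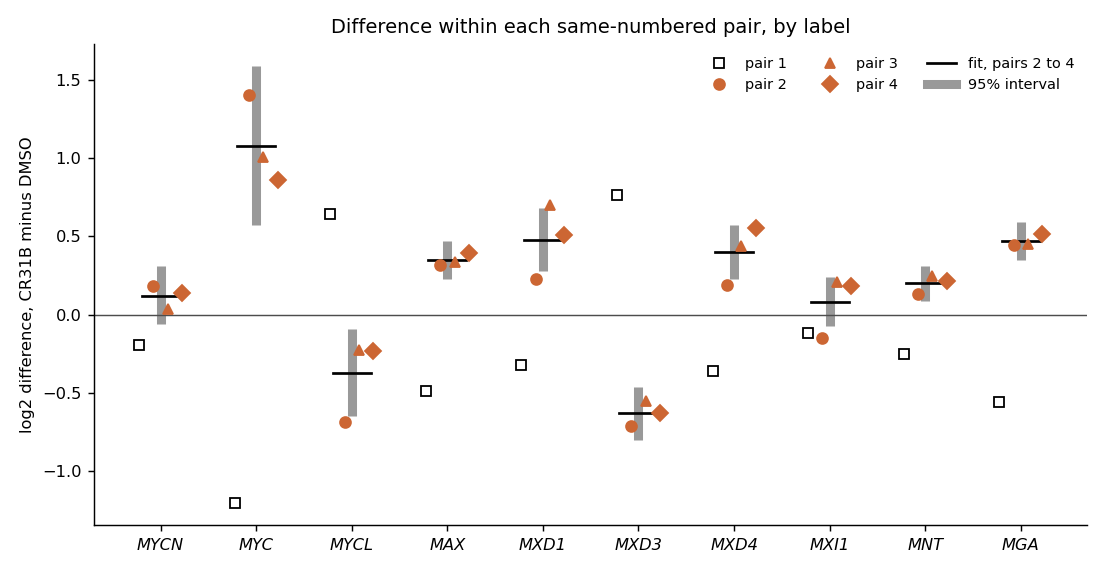
Log2 difference, CR31B minus DMSO, within each same-numbered pair (symbols) for the 10 members, with the fitted value of pairs 2 to 4 (black line) and its 95% interval (grey bar). Pair 1, the open squares, lay on the other side of 0 from the fitted value for all 10 members.

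Among the MYC genes, MYCN (ENSG00000134323, chromosome 2, 15940564 to 15947007, plus strand, GRCh38) is the driver oncogene of this line. The libraries labelled DMSO held 2966, 2319, 2304 and 2641 CPM for replicates 1 to 4, and those labelled CR31B 2597, 2637, 2359.8 and 2908 CPM. The groups overlapped with and without replicate 1. CR31B was above DMSO in pairs 2, 3 and 4, by 0.185, 0.035 and 0.139 on the log2 scale, and below it in pair 1. The fitted log2 fold change in pairs 2 to 4 was 0.12 ± 0.085 (SE), with a 95% interval from -0.06 to 0.31 and an adjusted p of 0.274 (edgeR). With replicate number as a block the same value of 0.12 had an adjusted p of 0.0243 (edgeR), in a fit that called 51.1% of all genes, and with GC and length offsets added to that block it was 0.069 with an adjusted p of 0.172. Counts of 123807 to 155570 per library make counting error negligible here. The width of the interval reflects spread between libraries, which edgeR moderates toward a trend over all genes, and not the spread of MYCN alone. In pair 1 the ratio of CR31B to DMSO was 0.876 (0.869 to 0.882), and its difference from pairs 2 to 4 had an adjusted p of 0.162 without the block and 0.00711 with it (edgeR), where 51.9% of all genes were called.

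MYC (ENSG00000136997, chromosome 8, 127735434 to 127741434, plus strand), the broadly expressed paralogue, was near the limit of what these libraries resolve. Its counts were 47, 31, 59 and 44 in the libraries labelled DMSO and 27, 71, 103 and 70 in those labelled CR31B, for replicates 1 to 4. As levels these were 1.13, 0.501, 0.874 and 0.857 CPM with DMSO and 0.478, 1.35, 1.78 and 1.57 CPM with CR31B. Without replicate 1 every library labelled CR31B lay above every library labelled DMSO. The exact Poisson interval (95%) was 1.06 to 1.71 CPM for the lowest of those CR31B libraries and 0.665 to 1.13 CPM for the highest of the DMSO ones, so these 2 intervals overlapped. The log2 fold change in pairs 2 to 4 was 1.08 ± 0.23 (SE), or 2.11-fold, with an adjusted p of 0.00358 (edgeR). Only 2.13% of tested genes had a larger change in size. In pair 1 the ratio was 0.425 (0.254 to 0.696), and the difference of that pair from the others was -2.31 on the log2 scale (adjusted p of 0.00432, edgeR).

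MYCL (ENSG00000116990, chromosome 1, 39895426 to 39902256, minus strand), first found in lung cancer, moved the other way from MYC. The libraries labelled DMSO held 4.22, 5.43, 5.30 and 5.02 CPM and those labelled CR31B 6.59, 3.37, 4.52 and 4.28 CPM. All 3 DMSO values of pairs 2 to 4 exceeded all 3 CR31B values, and pair 1 had the reverse order. Its log2 fold change in pairs 2 to 4 was -0.37 ± 0.13 (SE; adjusted p of 0.039, edgeR). The call was lost without CR31B replicate 2 (log2 fold change -0.25, adjusted p 0.121), without CR31B replicate 4 (0.0697) and without DMSO replicate 2 (0.105), 3 (0.0868) or 4 (0.0705). It was lost without pair 2 (adjusted p 0.236) and without pair 4 (0.119) as well. In pair 1 the ratio of CR31B to DMSO was 1.56 (1.30 to 1.88).

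**Figure D3:**
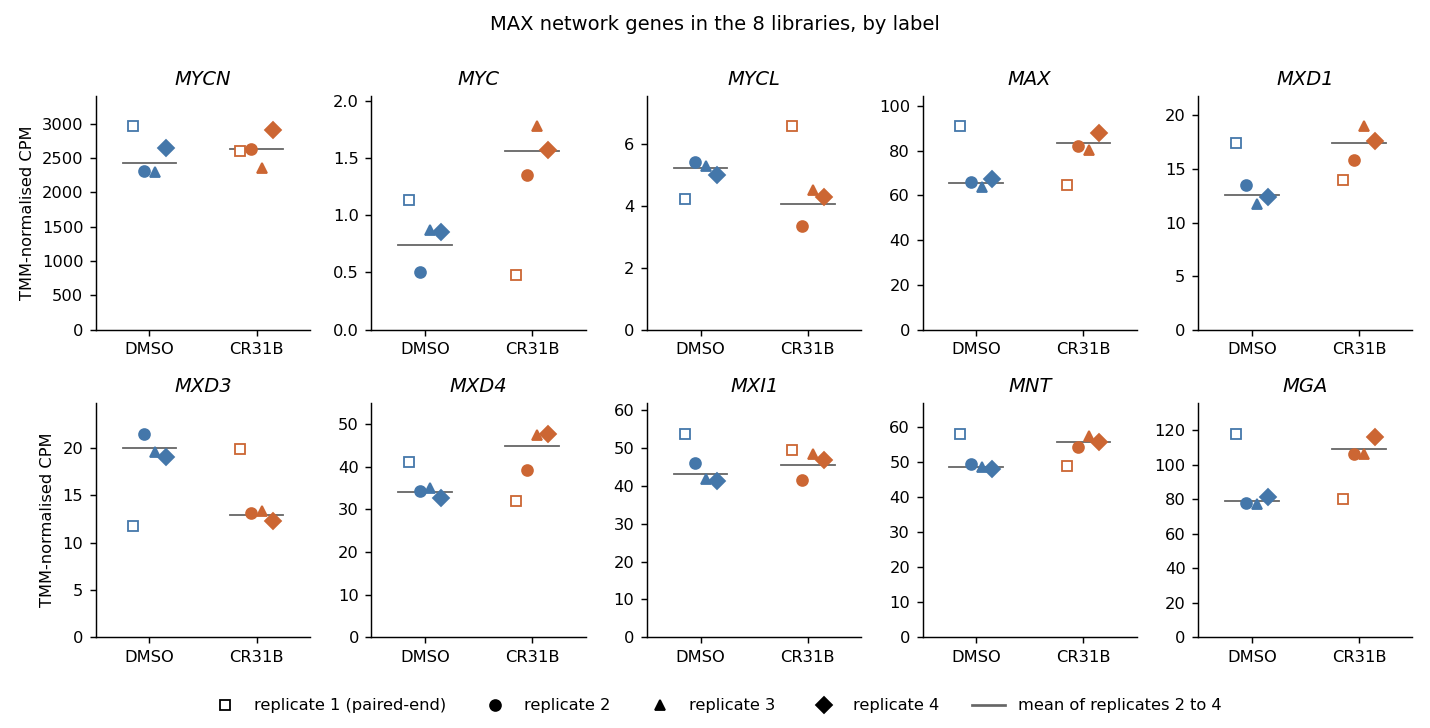
TMM-normalised CPM of the 10 members in each library, with 1 panel per gene, an axis from 0, a symbol for each replicate number and a line at the mean of replicates 2 to 4. The open squares of replicate 1 lie near or within the opposite group for most members, such as MAX, MXD1, MXD3, MXD4, MNT and MGA. With replicate 1 the 2 groups overlap for all 10 members, and without it only for MYCN and MXI1. The share of all genes whose groups overlap was not computed, so this count is not a result about the members. Of all genes tested in pairs 2 to 4, 41.3% were called.

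MAX (ENSG00000125952, chromosome 14, 65006174 to 65102695, minus strand) is the partner without which none of the MYC proteins binds DNA. It held 91.0, 65.9, 63.6 and 67.2 CPM in the libraries labelled DMSO and 64.8, 81.9, 80.4 and 88.1 CPM in those labelled CR31B, for replicates 1 to 4. In pairs 2 to 4 the groups did not overlap, and the library labelled DMSO replicate 1 exceeded all of them. The fitted rise was 0.35 ± 0.053 (SE) in log2, or 1.27-fold (adjusted p of 0.000486, edgeR). As MYCN moved less, the ratio of MYCN to MAX in CPM per kb was 59.9, 61.7 and 66.9 in the DMSO libraries of pairs 2 to 4 and 54.8, 50.0 and 56.2 in the CR31B ones. In pair 1 it was 68.3 in the library labelled CR31B and 55.5 in that labelled DMSO. On exon length, the DMSO libraries of pairs 2 to 4 averaged 930.5 CPM per kb for MYCN and 14.8 for MAX. With the median transcript length these means were 930.5 and 90.1. The size of the ratio, though not its order between libraries, therefore depends on the length used.

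Of the 4 MXD genes, whose products are tied to cell cycle exit and differentiation, 2 were higher, 1 was lower and 1 was not called in pairs 2 to 4. MXD3 (ENSG00000213347, chromosome 5, 177301461 to 177312757, minus strand), the MXD member known for expression in dividing cells, was the lower one. Its levels were 11.7, 21.5, 19.6 and 19.0 CPM in the libraries labelled DMSO and 19.9, 13.1, 13.3 and 12.3 CPM in those labelled CR31B. The 3 CR31B values of pairs 2 to 4 lay close together and well under the DMSO values, while pair 1 showed both levels exchanged. The log2 fold change was -0.63 ± 0.077 (SE), or 0.646-fold, with an adjusted p of 0.000114 (edgeR), and 11.9% of tested genes had a larger change in size. Of its exonic bases 18% also belong to RAB24 on the same strand and 22.5% to PRELID1 on the other. RAB24 held 34 to 92 counts per library, PRELID1 6623 to 12201 and MXD3 488 to 1329. Within pairs 2 to 4 RAB24 had a log2 fold change of 1.10 and PRELID1 one of -0.28, so MXD3 values are uncertain to the extent that reads in shared exons were assigned to 1 gene or to none.

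MXD1 (ENSG00000059728, chromosome 2, 69897688 to 69942945, plus strand), the founding MXD gene, rises in differentiating cells of many tissues. It held 17.4, 13.5, 11.7 and 12.4 CPM with DMSO and 14.0, 15.8, 19.0 and 17.6 CPM with CR31B, for replicates 1 to 4. Without replicate 1 the groups were apart, at 12.5 ± 0.891 CPM (SD, n = 3) with DMSO and 17.5 ± 1.63 CPM (SD, n = 3) with CR31B. The fitted rise in log2 was 0.48 ± 0.091 (SE; adjusted p of 0.00182, edgeR). The 3 pairs differed in size, at 0.227, 0.700 and 0.506.

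MXD4 (ENSG00000123933, chromosome 4, 2247432 to 2262294, minus strand) held 41.1, 34.3, 34.9 and 32.6 CPM with DMSO and 32.0, 39.2, 47.3 and 47.7 CPM with CR31B. Its log2 fold change in pairs 2 to 4 was 0.40 ± 0.078 (SE; adjusted p of 0.00224, edgeR), and 0.32 with an adjusted p of 0.0548 when pair 4 was left out. MXI1 (ENSG00000119950, chromosome 10, 110207605 to 110287365, plus strand), also called MXD2, held 53.8, 46.0, 41.9 and 41.3 CPM with DMSO and 49.5, 41.5, 48.4 and 46.9 CPM with CR31B. Its groups overlapped over all 8 libraries and over pairs 2 to 4, pair 2 had the sign opposite to pairs 3 and 4, and the log2 fold change of 0.08 had a 95% interval from -0.07 to 0.24 (adjusted p of 0.382, edgeR). Without pair 2 the groups did not overlap, and the value was 0.20 with an adjusted p of 0.0469 (edgeR). Several start sites are annotated for MXI1, and counts per gene do not tell its isoforms apart.

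The summed level of the 4 MXD genes per length overlapped between the groups, at 19.2 to 21.1 CPM per kb in the DMSO libraries of pairs 2 to 4 and 19.6 to 22.8 in the CR31B ones. The makeup of that sum differed. MXD3 supplied 19.7%, 19.3% and 19.1% of it with DMSO and 13.0%, 11.4% and 10.8% with CR31B. MXD4 supplied 23.0%, 25.1% and 24.0% with DMSO and 28.4%, 29.4% and 30.6% with CR31B. On exon length MXI1 was the main part at 46.0% to 47.2% in these 6 libraries. With the median transcript length MXD4 exceeded MXI1 in the DMSO libraries of pairs 2 to 4, at 54.4 against 48.4 CPM per kb. The shares therefore depend on the length used. In pair 1 MXD3 made up 18.1% in the library labelled CR31B and 10.1% in that labelled DMSO. These shares are descriptions, with no test.

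MNT and MGA are the large repressors of the network. MNT (ENSG00000070444, chromosome 17, 2384060 to 2401118, minus strand) is expressed in most cells and balances MYC activity. It held 58.0, 49.3, 48.4 and 47.8 CPM with DMSO and 48.7, 54.2, 57.4 and 55.6 CPM with CR31B. The rise in pairs 2 to 4 was small, with a log2 fold change of 0.20 ± 0.050 (SE) and an adjusted p of 0.00848 (edgeR), and 57.8% of tested genes had a larger change in size. The call was lost with upper quartile scaling (0.11, adjusted p 0.125), with total count scaling (0.12, adjusted p 0.0865), without pair 3 (adjusted p 0.0514) and without pair 4 (adjusted p 0.105).

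MGA (ENSG00000174197, chromosome 15, 41621224 to 41773081, plus strand) carries a T-box domain beside its MAX-binding domain and forms the core of the Polycomb complex PRC1.6. Its levels were 118, 77.7, 77.4 and 81.2 CPM in the libraries labelled DMSO and 80.4, 106, 106 and 116 CPM in those labelled CR31B. The 3 DMSO values of pairs 2 to 4 lay close together and far under the CR31B values, and the library labelled DMSO replicate 1 was the highest of all 8. The fitted rise was 0.47 ± 0.054 (SE) in log2, or 1.39-fold (adjusted p of 7.14e-05, edgeR). MGA has the lowest GC content of the members, 42.4% over its transcripts, and with GC and length offsets the value was 0.29 with an adjusted p of 0.00187. In pair 1 the ratio of CR31B to DMSO was 0.68 (0.653 to 0.708), and the difference from pairs 2 to 4 was -1.03 on the log2 scale with an adjusted p of 4.19e-05 (edgeR).

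The proteins that work with the network were described from 8 lists of 102 entries, beside the 41.3% of all genes called. Of the SIN3-HDAC corepressor, which MXD proteins and MNT recruit, 9 of 15 genes were called higher and 2 lower in pairs 2 to 4, with a median log2 fold change of 0.296. ARID4B rose most, from 94.8 ± 3.48 CPM (SD, n = 3) to 201 ± 10.2 CPM, a log2 fold change of 1.08 (adjusted p of 7.81e-07, edgeR). ARID4A, its paralogue and another subunit, had 0.86, and the scaffold SIN3A 0.77. The scaffold paralogue SIN3B, outside the rule for named genes and chosen after its value was seen, had -0.39 (adjusted p of 0.000406, edgeR). HDAC1 and HDAC2, the catalytic subunits and likewise picked afterwards, had -0.02 and 0.05 and did not pass.

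Of the Polycomb partners of MGA 5 of 12 genes were called higher and 1 lower, with a median of 0.050. RING1, a catalytic subunit, had a log2 fold change of 0.51 and YAF2 0.34. RYBP, the paralogue of YAF2, had 0.27 (adjusted p of 0.00187, edgeR), which GC and length offsets reduced to 0.018 (adjusted p 0.796). The count of higher genes was 3 with upper quartile or total count scaling, with those offsets, without CR31B replicate 2, and without pair 2 or pair 4. That of lower genes ranged from 0 to 2 over the alternatives. It was 0 without DMSO replicate 4 and 2 with upper quartile scaling or those offsets.

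Of the genes that set the turnover of MYC or MYCN protein, 9 of 14 were called higher and 2 lower, with a median of 0.280. PPP2CA, the catalytic subunit of phosphatase PP2A, rose from 233 ± 3.75 to 419.7 ± 10.3 CPM (SD, n = 3 each), a log2 fold change of 0.85 (adjusted p of 1.02e-06, edgeR). PPP2R5A, a PP2A subunit that directs it to MYC, had 0.80, and the ubiquitin ligase HUWE1 0.69. The genes called higher work in both directions on protein stability. FBXW7, a ligase that degrades MYC proteins, had 0.65 and USP7, a deubiquitinase that stabilises MYCN, had 0.68, both named after their values were seen. AURKA, which protects MYCN from FBXW7 and was also picked afterwards, had 0.31. The count of lower genes was 1 without DMSO replicate 2 or 4 and 0 without pair 4.

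**Figure D4:**
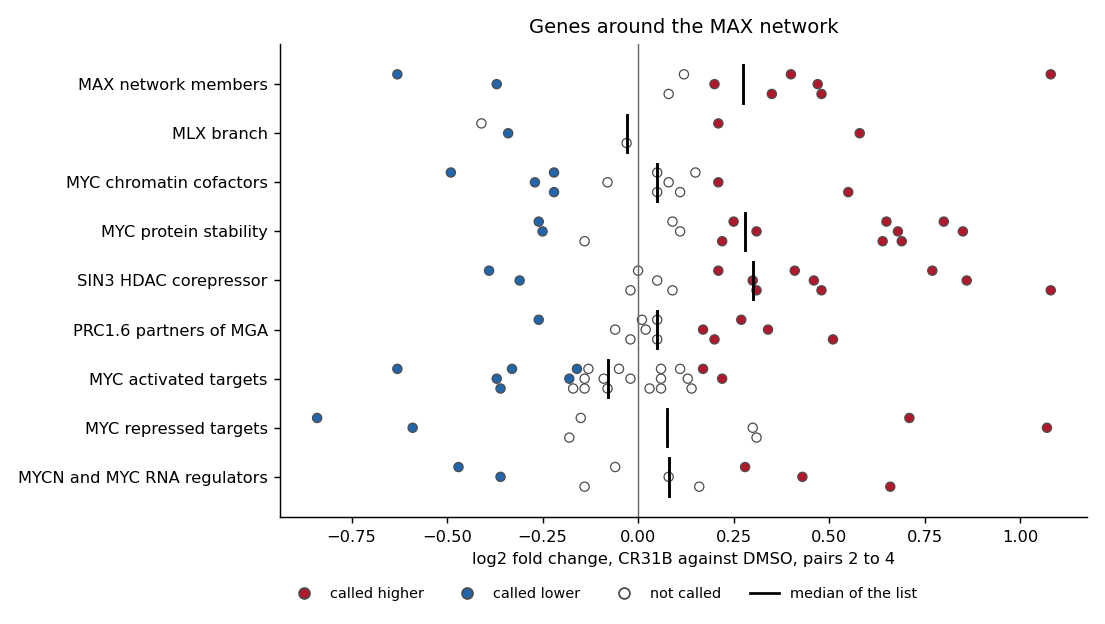
Log2 fold change of CR31B against DMSO in pairs 2 to 4 for each tested gene of the network and of 8 lists around it, with 1 point per gene coloured by its call and a black line at each list's median. Points of the corepressor and protein stability lists sit mostly to the right of 0, and those of the activated targets on both sides.

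Among chromatin cofactors of MYC 2 of 12 genes were called higher and 4 lower, with a median of 0.050, and with replicate number as a block 4 were higher and 4 lower. HCFC1, a host cell factor that binds MYC, had 0.55 (adjusted p of 4.64e-05, edgeR), and the acetyltransferase KAT2A -0.49 (adjusted p of 0.000237). ZBTB17, the MYC partner in repression also called MIZ1, had -0.27 with an adjusted p of 0.021, which was lost without CR31B replicate 3, DMSO replicate 2 or DMSO replicate 4, and without any 1 of pairs 2 to 4. Without CR31B replicate 3 the count of higher genes was 4, and without pair 4 it was 1 higher and 1 lower.

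Of 25 listed targets that MYC proteins are known to raise, 23 were tested, 2 were called higher and 6 lower, and 15 did not pass, with a median of -0.078. With replicate number as a block the count was 4 higher and 9 lower, where 28.1% of all genes were called higher and 23.1% lower, and with upper quartile scaling 1 higher and 10 lower. Without DMSO replicate 2 it was 1 higher and 3 lower, and without pair 4 it was 0 higher and 3 lower. The number higher was 4 without CR31B replicate 3 and 1 without CR31B replicate 2, CR31B replicate 4 or DMSO replicate 3. TERT, the telomerase reverse transcriptase, had 1.72 ± 0.421 CPM with DMSO and 1.12 ± 0.0952 CPM with CR31B (SD, n = 3 each), a log2 fold change of -0.63 (adjusted p of 0.0292, edgeR). That call was lost without CR31B replicate 2 or 4, without DMSO replicate 2 or 3, and without any 1 of pairs 2 to 4. PRDX3, a mitochondrial peroxidase, had -0.37 and GNL3, a nucleolar GTPase, -0.36.

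Targets that MYC proteins are known to repress split evenly, with 2 of 8 tested genes higher and 2 lower. GADD45A, a stress-induced gene, rose from 64.8 ± 4.13 to 106 ± 1.49 CPM (SD, n = 3 each), a log2 fold change of 0.71 (adjusted p of 6.61e-06, edgeR). NDRG1 fell from 4.93 ± 0.623 to 2.76 ± 0.501 CPM, a log2 fold change of -0.84 (adjusted p of 0.00161). CLU had -0.59 with an adjusted p of 0.0407 (edgeR). That call was lost with GC and length offsets, without CR31B replicate 2 or 4, without DMSO replicate 2 or 3, and without pair 2 or pair 4. The count of lower genes was 1 with those offsets and without each of those single libraries. It also changed without the low count filter, without pair 2 and without pair 4. The count of higher genes was 1 without CR31B replicate 3, DMSO replicate 2 or 3, pair 2 or pair 3. It was also 1 with DESeq2 and with a filter of at least 1 CPM in 3 libraries.

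The MLX branch is a parallel network in which MLX takes the place of MAX and its partners sense glucose. MLXIP, also called MondoA, fell from 125 ± 4.57 to 98.8 ± 7.07 CPM (SD, n = 3 each), a log2 fold change of -0.34 (adjusted p of 0.00125, edgeR). TXNIP, a target of MLXIP, rose from 59.0 ± 3.23 to 88.1 ± 13.2 CPM, a log2 fold change of 0.58 (adjusted p of 0.000664). ARRDC4, another target, had 0.21 with an adjusted p of 0.0454 and kept its call in 5 of 19 alternatives, so that TXNIP was then the 1 gene of the list called higher. MLX itself, named after its value was seen, had -0.03 and did not pass.

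Among RNAs and proteins that act on MYCN or MYC transcripts, 3 of 9 tested genes were higher and 2 lower, with a median of 0.083. IGF2BP1, which binds and stabilises MYC mRNA, rose from 838 ± 51.9 to 1321 ± 53.2 CPM (SD, n = 3 each), a log2 fold change of 0.66 (adjusted p of 1.85e-05, edgeR). IGF2BP3, its paralogue, had 0.43. PVT1, the noncoding neighbour of MYC, fell from 9.09 ± 0.226 to 6.56 ± 0.178 CPM, a log2 fold change of -0.47 (adjusted p of 0.00148), while MYC was higher. In pair 1 every gene called in these 8 lists had the opposite sign, and 0 of them passed with all 8 libraries as labelled (edgeR).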

How the data were processed

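Polyadenylated RNA of 8 IMR32 libraries (250 ng input, 15 PCR cycles and 75 sequencing cycles, per the labels' protocols, which name a small RNA library kit) was analysed. The authors deposited raw counts per Ensembl gene, without normalisation. The submitters' processing notes list FastQC 0.11.7, STAR 2.7.2b, edgeR 3.36.0, limma 3.50.3 and the build GRCh38. The name of the deposited counts carries the word reverse, but the sources used here spell out neither the counting tool nor the strand setting. Of 58787 identifiers 58515 were in GENCODE release 29, which gave positions, exon lengths and overlaps. No column was left unmapped, and the column of CR31B replicate 4 was matched although its name misses 1 letter of IMR32.

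Tests on the counts used edgeR 4.0.16 under R 4.3.3 (filterByExpr, TMM, glmQLFit and glmQLFTest, two-sided, Benjamini-Hochberg over all tested genes, adjusted p under 0.05) in the 6 single-end libraries, in all 8 with layout as a covariate, and for the interaction of treatment with layout. CPM used TMM factors of the 8 libraries; differences within a pair are of log2 CPM (prior count 1); pair 1 intervals are exact binomial (95%). Members and lists were chosen with earlier results of these data known. The text names the 10 members, up to 3 called genes of each list with the largest change and at least 1 CPM, and for each member the 3 genes most correlated with it. Other genes named are marked in the text as chosen after their values were seen, or overlap a member, or are cell type markers. Alternatives were RLE, upper quartile and total count scaling, 2 filters, DESeq2 1.42.0, limma voom 3.58.1, GC and length offsets, no layout term, the replicate block, and leaving out libraries or pairs. Same-numbered single-end libraries were treated as pairs for display. Their deviations from the group means correlated weakly, at 0.21, 0.39 and 0.16 within numbers 2, 3 and 4 and at -0.31 to 0.09 between numbers. No source states a pairing, so the main fit has no block. No 2 libraries with the same group label were duplicates (mean chi-square per gene of at least 7.28, where 1 is expected). Libraries with different group labels were not compared in this way. The scripts were checked on simulated counts. Counting intervals cover counting error only, as no molecular identifiers are described.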

Additional observations from a re-analysis of the deposited data

Results flagged for a closer look

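The difference between CR31B and DMSO in pair 1 was unlike that in pairs 2 to 4 for 8 members by the interaction test (edgeR, adjusted p under 0.05), with opposite signs in each. The same test called 42.5% of all 16518 genes tested. Over the whole table, signs were opposite in 6822 of the 6901 genes called in pairs 2 to 4. The interaction on the log2 scale, pair 1 minus pairs 2 to 4, was -2.31 for MYC, 1.02 for MYCL, -0.84 for MAX, -0.80 for MXD1, 1.40 for MXD3, -0.76 for MXD4, -0.45 for MNT and -1.03 for MGA. It was not called for MYCN and MXI1.

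A single library lay apart from the rest of its labelled group in 4 of 20 member and group combinations, by a rule with a nominal rate of about 1 in 20. The combinations share the same libraries, and the share over all genes was not computed. The count is therefore not a result about the members. As a share of the range of the group, the distance to the closest library was 0.861 for MXD3 in the CR31B libraries and 0.868 for MAX, 0.851 for MNT and 0.907 for MGA in the DMSO libraries. In all 4 the distant library was replicate 1. These ratios come from the same 2 libraries as the interaction, and what sets those libraries apart was not tested.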

How the results depend on the processing

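In pairs 2 to 4 the count of 8 called members was 7 or 8 over the scalings, filters, tools and offsets and 9 with the replicate block, which added MYCN and changed no other member's call, while the genes called over the whole table went from 6901 to 8540 (51.1%). Leaving out single libraries or pairs gave 5 to 8 called members and 3981 to 6727 called genes, the lowest of both without pair 4. Without pair 2 or pair 3, which also leaves 4 libraries, 8 and 7 members and 5689 and 5869 genes were called. MYC, MAX, MXD1, MXD3 and MGA kept their call in all 19 alternatives. With all 8 libraries, leaving 1 out gave 0 to 8 called members and 0 to 6920 called genes, with calls made only without CR31B or DMSO replicate 1 (8 members each). Values near 0 changed sign: MXI1 was -0.012 in pairs 2 to 4 and -0.0083 in 8 libraries under upper quartile scaling. It was -0.0015 under total count scaling of the 8 libraries and 0.0078 in the interaction with upper quartile scaling. Without 1 library of the 8, MXI1 ranged from -0.0082 to 0.084, MYCL from -0.37 to 0.011 and MYCN from -0.023 to 0.12. Upper quartile scaling moved the median of all genes from 0.023 to 0.230 in the interaction, where MNT was -0.25 (adjusted p 0.0794, edgeR). MYC rests on 27 to 103 counts per library. The cause of these changes was not tested.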

Other observations

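Genes whose log2 CPM followed a member most closely over the 8 libraries were listed among 10790 candidates of at least 5 CPM. The libraries fall into 2 sets on most of these genes, so high Pearson r values are common, and they are given with no test. Picking the top 3 of 10790 candidates over 8 libraries also gives high values by itself. That holds for MYCN and MXI1 too, whose levels differed little between the sets. MYCN, which differed little between the sets, was followed by CBX6 (0.978), SIPA1L3 (0.976) and POLR1B (0.971). MAX was followed by CNOT6L (0.998), UCHL5 (0.996) and PPP3CA (0.995), MGA by NR1D1, RPTOR and TTLL4 (0.998 each) and MXD3 by IFT52 (0.995), FKBP1A (0.995) and RNF157 (0.994). MYC was followed by CHTOP, SETD4 and CASZ1 (0.993 each), and MYCL by CLCN6 (0.968), LTBP3 (0.966) and OIP5-AS1 (0.965). MXD1 was followed by PNRC1 (0.988), CPEB3 (0.988) and TENM3 (0.985), and MXD4 by MBTD1 (0.987), KNTC1 (0.985) and RFX5 (0.985). MXI1 was followed by TMEM192 (0.966), DOCK4 (0.964) and FOCAD (0.953), and MNT by SETD7 (0.995), CEP57 (0.994) and CYP7B1 (0.990).

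MYCNOS, the antisense RNA of the MYCN locus, covers 3.77% of the exonic bases of MYCN on the other strand. It held 555 to 1321 counts per library, and its log2 fold change in pairs 2 to 4 was -0.06 with an adjusted p of 0.701 (edgeR). The deposited counts carry the word reverse in their name, but no strand setting is spelled out. Whether reads of the 2 genes in the shared bases were kept apart was not tested.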
